A study of Mus musculus with 4 samples.

Results

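The 6 HoxB cluster genes Hoxb2, Hoxb3, Hoxb4, Hoxb5, Hoxb6 and Hoxb8 were described across 4 single-cell libraries and the cell classes within them. The members were taken by symbol from the 32285 gene features of the deposited matrices, and all 6 were found. The cells were Kit+ CD45.2+ mouse bone marrow collected 10 weeks post-transplantation, and gene transcripts and surface antibody barcodes were counted in the same cells. A single library each came from a control group, a group with Mll4 deleted, a group with Mll3 deleted and a group with both deleted (Mll3/4 deleted), so that every comparison is between libraries and no p-value is given. Mll3 and Mll4 are the histone lysine methyltransferases encoded by Kmt2c and Kmt2d, which act mainly at enhancers. The labels used here do not give the strain, the alleles, the Cre driver, the age or number of donors, or whether animals were pooled.

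Hox genes encode homeodomain transcription factors and lie in 4 mammalian clusters (HoxA to HoxD), within which neighbouring genes share much of their regulation. In blood formation, HoxB and HoxA genes are expressed in haematopoietic stem cells (HSC) and multipotent progenitors (MPP) and decline as cells mature. Hoxb4 is known for expanding stem cells when overexpressed, Hoxb5 for marking long-term stem cells, and Hoxb8 for arresting myeloid progenitors when forced on. Hoxb2 and Hoxb3 are anterior members of the cluster, and the loss of Hoxb3 together with Hoxb4 mildly impairs stem cells.

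On GRCm38 with the GENCODE M21 annotation, the members lie on the plus strand of chromosome 11. From the 5′ end of the cluster the order was Hoxb8 (96281905 to 96285315), Hoxb6 (96292476 to 96301569), Hoxb5 (96303336 to 96306121), Hoxb4 (96318267 to 96321638), Hoxb3 (96323326 to 96347930) and Hoxb2 (96350525 to 96354012). The antisense transcript Hoxb5os overlaps Hoxb5 and Hoxb6, and the antisense transcript Hoxb3os overlaps Hoxb2 and Hoxb3. Whether the counting used strand is not given in the sources used here, so reads of these pairs may not be fully separated.

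RefSeq promoter sequence (GRCm38.p6) was held for 2 of the 6 members, Hoxb4 and Hoxb8. Hoxb4 was counted in most classes and Hoxb8 in few cells. These sequences are shown because none was held for the other members. Each runs 5′ to 3′ over the 250 bases before the start site, on the plus strand, at chr11:96318017-96318266 for Hoxb4 and chr11:96281655-96281904 for Hoxb8. Capitals mark matches, on either strand, to TATAAA (the TATA box), CCAAT (the CCAAT box), CACGTG (an E-box), TTTATG (a posterior Hox and Cdx core) or TGATTGAT (a Pbx and Hox core).
Hoxb4: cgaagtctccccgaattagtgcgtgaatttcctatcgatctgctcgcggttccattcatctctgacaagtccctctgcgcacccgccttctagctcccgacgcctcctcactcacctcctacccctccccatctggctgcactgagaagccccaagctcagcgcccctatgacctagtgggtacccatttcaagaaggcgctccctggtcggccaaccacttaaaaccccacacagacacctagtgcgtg
Hoxb8: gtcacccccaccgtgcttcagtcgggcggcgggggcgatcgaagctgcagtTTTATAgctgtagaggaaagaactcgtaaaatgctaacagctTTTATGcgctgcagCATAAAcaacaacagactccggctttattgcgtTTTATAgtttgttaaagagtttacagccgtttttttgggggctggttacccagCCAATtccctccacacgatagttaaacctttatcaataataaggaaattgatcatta
The Hoxb4 window held none of the 5 motifs and had a GC content of 58.0%. The Hoxb8 window had a GC content of 44.4%, with TATAAA on the opposite strand starting 199 and 110 bases before the start site, CCAAT at 57 bases, and TTTATG at 157 and, on the opposite strand, 143 bases. Of 32851 promoter windows of the same length, 12.4% held TATAAA, 33.8% CCAAT, 6.02% CACGTG, 10.8% TTTATG and 0.67% TGATTGAT. A match is a description of the letters in this window only.

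Filtering left 7146 cells in control, 5860 with Mll3 deleted, 5350 with Mll4 deleted and 6917 in the Mll3/4 deleted library. The libraries differed in depth: the median kept cell had 15754 UMIs (unique molecular identifiers, 1 per captured transcript) in control and 5142 in the Mll4 deleted library. Pairs of libraries shared between 9 and 24 cell barcodes. The transcript of Kmt2c was at 47.9, 27.2, 59.2 and 34.8 CPM (counts scaled to a common total of UMIs) in control, Mll3, Mll4 and Mll3/4 deleted libraries, and that of Kmt2d was between 21.6 and 25.8 CPM in the 4 libraries. Kmt2c was thus lower in both libraries labelled for Mll3, whereas Kmt2d did not separate the libraries labelled for Mll4. Which exons were deleted is not given in the sources used here, so transcript tags outside them check nothing, and libraries are named by their labels throughout. Xist was at 0.519 CPM in the library labelled Mll4 deleted and at 955 CPM or more in the others, so donor sex and the Mll4 label cannot be told apart.

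Cells were clustered without any Hox gene, and classes were named from fixed markers. The makeup of the libraries differed. HSC/MPP-like cells numbered 725, 567, 321 and 10 in control, Mll3, Mll4 and Mll3/4 deleted libraries, and B-cell progenitor-like cells 471, 369, 144 and 6831. The 10 HSC/MPP markers summed to 680, 674 and 609 CPM in the control, Mll3 and Mll4 deleted cells of the HSC/MPP-like class, and none was at 0. That class was named from these markers, so their presence is no separate check of the name. CPM were taken from the summed counts of all cells in a library or class, with exact 95% Poisson intervals. These intervals cover counting error only. Since the 3′ assay counts 1 tag per transcript, CPM are not divided by gene length.

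Over all kept cells, Hoxb2, Hoxb5 and Hoxb6 were higher in the Mll3 deleted library than in control, and Hoxb2, Hoxb3 and Hoxb4 were lower in the Mll4 deleted library. In the Mll3/4 deleted library Hoxb2 was almost absent, Hoxb3 and Hoxb5 were past 2-fold lower, and Hoxb4 was lower by less, at 7.19 against 9.67 CPM. In such sums a smaller number of expressing cells and less RNA per cell cannot be told apart. Counts expected from the class makeup of the libraries are given further below.

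Hoxb2 had 793 counts in control (5.16 CPM, 4.81 to 5.53), 1274 in the Mll3 deleted library (9.37 CPM, 8.86 to 9.90), 32 in the Mll4 deleted library (0.976 CPM, 0.668 to 1.38) and 3 in the Mll3/4 deleted library (0.0386 CPM, 0.00797 to 0.113). The 4 intervals did not overlap. Against control the log2 ratio of Hoxb2 was 0.86 (0.73 to 0.99), −2.40 (−2.96 to −1.89) and −7.06 (−9.34 to −5.51), and the last rests on 3 counts.

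Hoxb3 was at 1.73, 1.98, 0.580 and 0.592 CPM in control, Mll3, Mll4 and Mll3/4 deleted libraries, from 266, 269, 19 and 46 counts. Control and Mll3 deleted intervals overlapped, as did those of the Mll4 and Mll3/4 deleted libraries, and the 2 pairs lay apart. The log2 ratio of Hoxb3 was 0.19 (−0.06 to 0.44), −1.58 (−2.33 to −0.91) and −1.55 (−2.03 to −1.09).

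Hoxb4, the most counted member, was at 9.67, 9.72, 5.09 and 7.19 CPM from 1486, 1322, 167 and 558 counts. Its log2 ratio was 0.01 (−0.10 to 0.12) in the Mll3 deleted library, −0.92 (−1.16 to −0.69) in the Mll4 deleted library and −0.43 (−0.57 to −0.29) in the Mll3/4 deleted library. Control and Mll3 deleted libraries were thus indistinguishable for Hoxb4 within counting error.

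Hoxb5 was at 1.15, 1.93, 0.793 and 0.232 CPM from 177, 263, 26 and 18 counts. Its log2 ratio was 0.75 (0.47 to 1.03), −0.54 (−1.19 to 0.06) and −2.31 (−3.10 to −1.61). The Mll4 deleted interval includes 0. With every cell thinned to 2000 UMIs, the Mll3 deleted log2 ratio was 0.47 for Hoxb2 and 0.31 for Hoxb5, and that of Hoxb3 and Hoxb5 with Mll4 deleted was −2.78 and −1.97.

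Hoxb6 had 22, 43, 10 and 17 counts (0.143, 0.316, 0.305 and 0.219 CPM), and its log2 ratio was 1.14 (0.37 to 1.95), 1.09 (−0.15 to 2.23) and 0.61 (−0.39 to 1.59). Hoxb8 had 12, 14, 6 and 15 counts, under the minimum of 20 used for ratios in either library. For these 2 members most differences between libraries were not detectable at this depth.

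**Figure D1:**
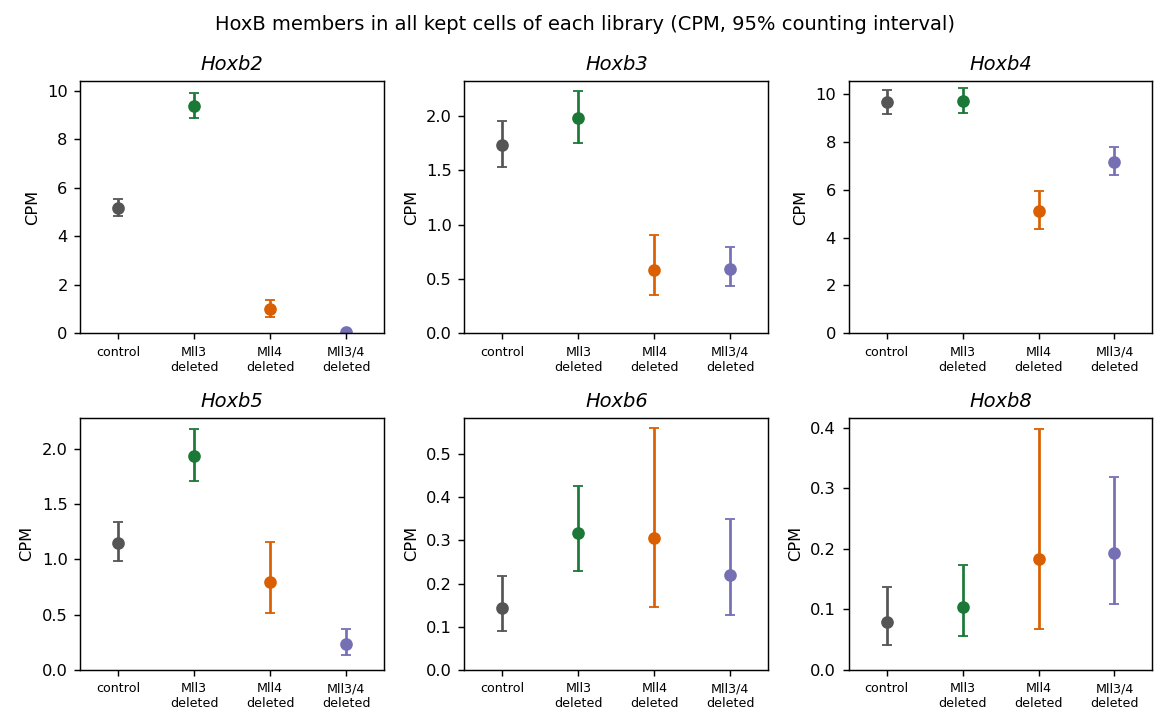
Level of each HoxB member in all kept cells (y axis, CPM, starting at 0) in the 4 libraries (x axis), with points for the summed count and bars for the exact 95% Poisson interval. Hoxb2 is lowest with Mll3/4 deleted (0.0386 CPM) and highest with Mll3 deleted (9.37 CPM), while Hoxb4 stays between 5.09 and 9.72 CPM.

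A gene is called tested here, with no p-value, once one of the libraries compared holds 20 counts of it. At a log2 ratio of at least 1 in size (2-fold), 1 of 5 tested members was higher in the Mll3 deleted library (Hoxb6), beside 1.57% of all genes, and none was lower, beside 3.4%. In the Mll4 deleted library 1 of 5 was higher (Hoxb6), beside 9.67% of all genes, and 2 of 5 were lower (Hoxb2 and Hoxb3), beside 8.68%. In the Mll3/4 deleted library 3 of 5 were lower (Hoxb2, Hoxb3 and Hoxb5), beside 19.5% of all genes, and none was higher, beside 19.8%. The median log2 ratio of the tested members was 0.75, −0.92 and −1.55, where that of all genes was −0.05, 0.02 and −0.02. With cells thinned to 2000 UMIs the members' median was 0.21, −2.16 and −2.30, and with a pseudocount of 1 CPM it was 0.20 with Mll3 deleted and −0.78 with both deleted. Of the antisense transcripts, Hoxb3os had log2 ratios of 0.53, −1.40 and −5.36, on the same side as Hoxb2 and Hoxb3, which it overlaps. Hoxb5os was at 0.37, −1.40 and −3.32, on the side of Hoxb5 in each library but on the other side from Hoxb6 with Mll4 deleted and with both deleted.

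Within control, the summed level of the 6 members was highest in HSC/MPP-like cells at 50.6 CPM (46.5 to 54.9, 725 cells). Megakaryocyte-like cells (33.5 CPM, 30.3 to 36.9), lymphoid-primed progenitor-like cells (29.3), basophil/mast-like cells (24.2), monocyte/macrophage progenitor-like cells (18.1) and granulocyte progenitor-like cells (17.4) followed, each overlapping the next. Erythroid progenitor-like (11.2), neutrophil-like (10.3) and B-cell progenitor-like cells (8.80) came last and overlapped one another, and the interval of the erythroid class lay below that of the granulocyte progenitor-like class. T/NK/innate lymphoid-like cells had 1 count.

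The members differed in how far they extended beyond HSC/MPP-like cells. Hoxb2 in control was at 15.9 CPM in HSC/MPP-like, 11.8 in megakaryocyte-like, 7.14 in lymphoid-primed, 4.27 in erythroid, 1.65 in granulocyte progenitor-like, 1.33 in neutrophil-like and 0.314 in B-cell progenitor-like cells. Hoxb4 covered a narrower range, from 21.0 CPM in HSC/MPP-like to 13.5 in granulocyte progenitor-like, 7.80 in neutrophil-like, 7.23 in B-cell progenitor-like and 5.72 in erythroid progenitor-like cells. Hoxb5 was at 4.94 CPM in HSC/MPP-like and 4.47 in megakaryocyte-like cells, whose intervals overlapped, and at 1.23 CPM or less in each other class. Hoxb3 was at 7.42 CPM in HSC/MPP-like cells, apart from the 3.92 of lymphoid-primed cells, and at 0.604 in erythroid cells. Of the 12 Hoxb8 counts in control, 7 came from HSC/MPP-like cells, 2 from megakaryocyte-like, 2 from neutrophil-like and 1 from erythroid progenitor-like cells.

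**Figure D2:**
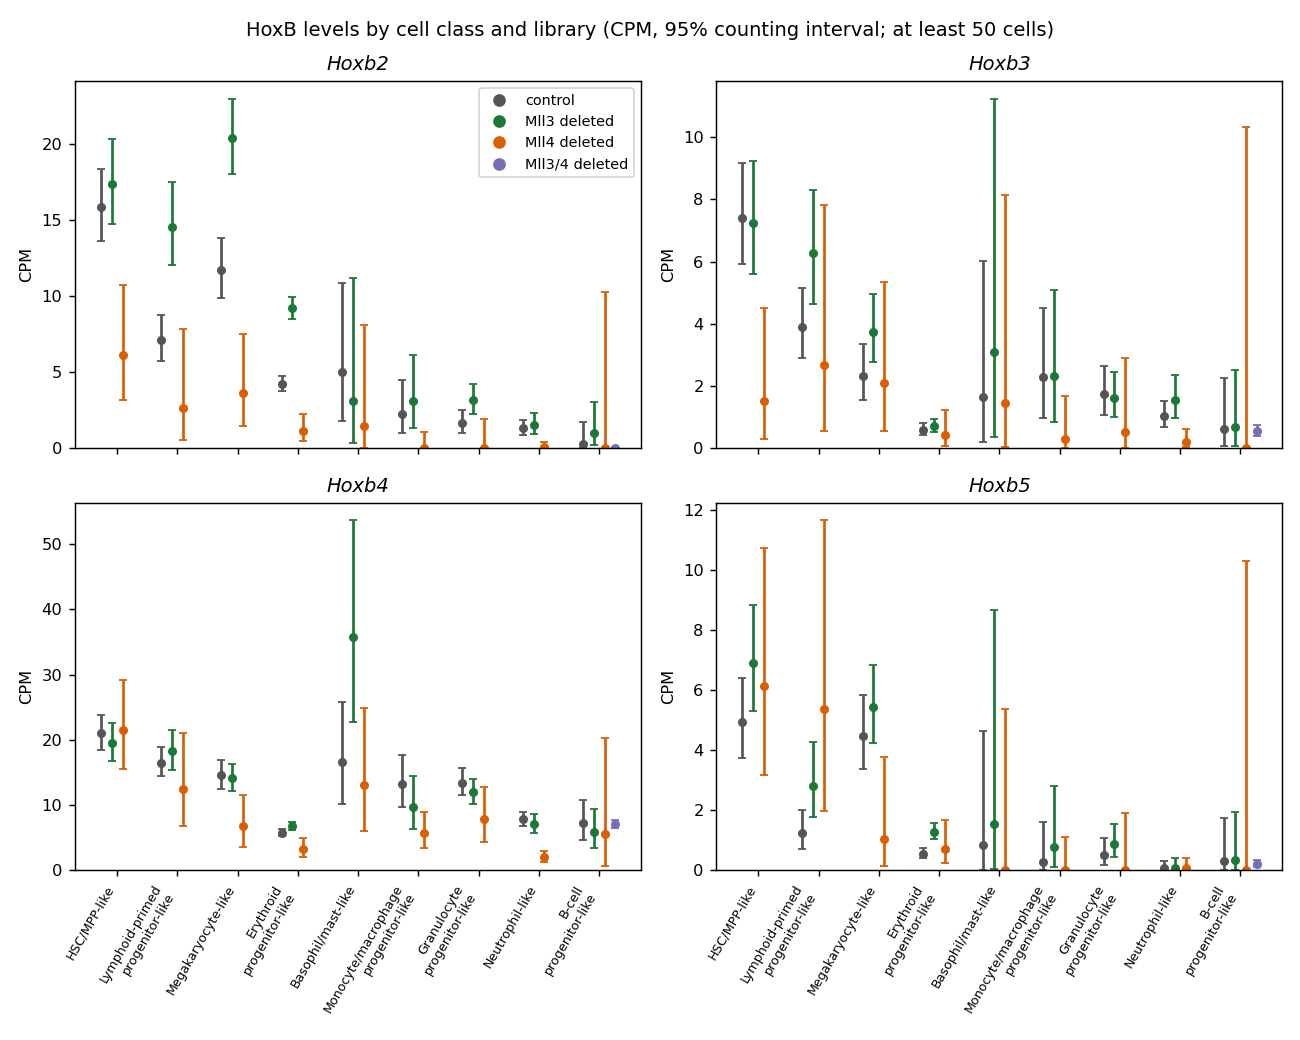
Levels of Hoxb2, Hoxb3, Hoxb4 and Hoxb5 (y axis, CPM, starting at 0) in 9 cell classes (x axis) with at least 50 cells, colored by library, with exact 95% Poisson intervals. Hoxb2 in control ranges from 15.9 CPM in HSC/MPP-like cells to 0.314 CPM in B-cell progenitor-like cells, while Hoxb4 keeps 7.23 CPM in the latter.

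HSC/MPP-like cells also stood above neutrophil-like cells in the share of cells with a UMI, after each cell was thinned to 2000 UMIs. At least 1 UMI of any member was seen in 11.4% of 725 control, 12.0% of 566 Mll3 deleted and 9.52% of 315 Mll4 deleted HSC/MPP-like cells, with 0, 1 and 6 shallower cells left out. In neutrophil-like cells it was 1.66%, 2.51% and 0.452%. These cells came mostly from different clusters in control and the Mll4 deleted library, and the part of free RNA in these shares was not measured. Without thinning, 49.4%, 54.1% and 21.2% of HSC/MPP-like cells had a UMI of any member, at median depths that differ between the libraries. In control, 36 of 725 unthinned HSC/MPP-like cells held both Hoxb2 and Hoxb4, beside 33.8 given by the product of the shares, and 9 held both Hoxb4 and Hoxb5, beside 12.3. Other pairs lay above the product, with 13 cells for Hoxb2 and Hoxb5, beside 9.45, and 9 for Hoxb3 and Hoxb5, beside 5.24. Hoxb3 and Hoxb4 were together in 18, beside 18.8. After thinning, 2 cells held both Hoxb2 and Hoxb4, beside 1.36.

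Among HSC/MPP-like cells, the antibody counts for CD150 (Slamf1) and CD48 separated levels of the members. CD150+ CD48− is the usual surface definition of HSC, and CD150− CD48+ that of later MPP. In control the summed members were at 86.9 CPM (75.7 to 99.2) in 210 CD150+ CD48− cells, 53.1 CPM in 69 CD150+ CD48+ cells, 55.3 CPM in 117 CD150− CD48− cells and 35.2 CPM (30.7 to 40.0) in 329 CD150− CD48+ cells. The CD150+ CD48− interval lay above the other 3. The same gate held 83.2 CPM in the Mll3 deleted library and 88.3 CPM in the Mll4 deleted library, against 33.8 and 25.5 CPM in their CD150− CD48+ cells. The Mll4 deleted values rest on fewer counts, since all HSC/MPP-like cells of that library held 79 counts of the members, against 573 in control.

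Hoxb5, the stem cell marker of the cluster, was at 13.1 CPM (9.05 to 18.5) in control CD150+ CD48− cells and 2.48 CPM (1.42 to 4.02) in CD150− CD48+ cells. The same pair was 14.5 and 1.90 CPM in the Mll3 deleted library and 18.7 and 1.76 CPM in the Mll4 deleted library. The Mll4 deleted pair rests on few counts, since all HSC/MPP-like cells of that library held 12 Hoxb5 counts. Hoxb4 did not follow this order: in control it was at 21.5 CPM (16.2 to 28.1) in CD150+ CD48− cells and 17.5 CPM (14.4 to 21.0) in CD150− CD48+ cells, with overlapping intervals, and it was highest in CD150− CD48− cells at 35.0 CPM (25.3 to 47.1). In the Mll3 and Mll4 deleted libraries Hoxb4 in CD150− CD48− cells was at 18.9 and 11.8 CPM, the latter from 4 counts. Hoxb8 was counted almost solely in CD150+ CD48− cells, which held 7 of its 7 counts in control HSC/MPP-like cells, 11 of 11 in the Mll3 deleted library and 3 of 4 in the Mll4 deleted library. Hoxb6 had 6 of 8, 13 of 16 and 4 of 6 of its counts there.

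**Figure D3:**
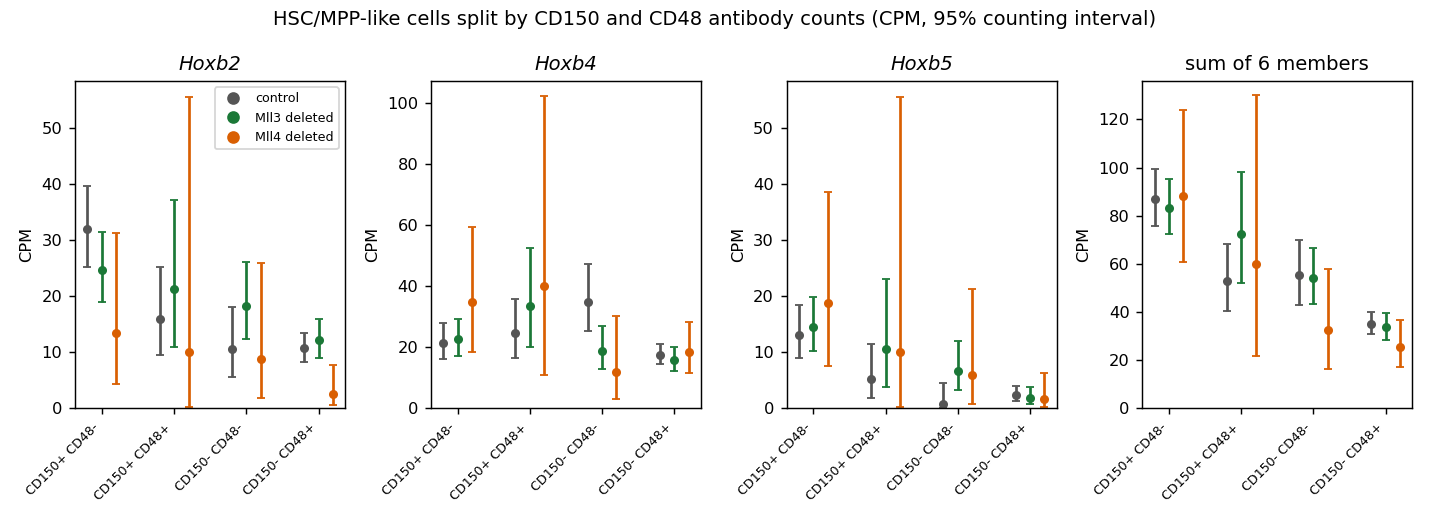
Levels of Hoxb2, Hoxb4, Hoxb5 and the sum of the 6 members (y axis, CPM, starting at 0) in HSC/MPP-like cells of 3 libraries, split by CD150 and CD48 antibody counts (x axis), with exact 95% Poisson intervals. The summed level in CD150+ CD48− cells is 86.9, 83.2 and 88.3 CPM in control, Mll3 and Mll4 deleted libraries. All HSC/MPP-like cells of the Mll4 deleted library held 79 counts of the members.

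Between the Mll3 deleted and control libraries, HSC/MPP-like cells did not differ in any tested member beyond counting error. The log2 ratio was 0.13 (−0.19 to 0.45) for Hoxb2, −0.03 (−0.52 to 0.45) for Hoxb3, −0.11 (−0.40 to 0.18) for Hoxb4 and 0.48 (−0.06 to 1.03) for Hoxb5. None of the 4 tested members was past 2-fold, beside 0.901% of genes higher and 2.13% lower. The intervals of Hoxb2, Hoxb3 and Hoxb4 lay within 2-fold and that of Hoxb5 did not, for counting error only. Variation between animals or libraries is not covered.

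In erythroid progenitor-like and lymphoid-primed progenitor-like cells, Hoxb2 and Hoxb5 were higher in the Mll3 deleted library. In erythroid progenitor-like cells Hoxb2 was at 9.23 CPM in the Mll3 deleted library and 4.27 in control, a log2 ratio of 1.11 (0.92 to 1.31), and Hoxb5 at 1.27 and 0.549 CPM, 1.21 (0.66 to 1.79). These 2 of 4 tested members were past 2-fold, beside 1.1% of genes in that class. In lymphoid-primed cells Hoxb2 (1.03, 0.62 to 1.44) and Hoxb5 (1.20, 0.20 to 2.22) again passed 2-fold, beside 0.701% of genes, and in megakaryocyte-like cells, where no member passed 2-fold (1.35% of genes), Hoxb2 was at 20.4 against 11.8 CPM (0.80, 0.50 to 1.10). No tested member passed 2-fold in granulocyte progenitor-like, neutrophil-like or monocyte/macrophage progenitor-like cells, beside 0.714%, 0.927% and 0.626% of genes higher. Over the 8 classes compared, Hoxb2 was higher in 6 of the 6 where it was tested, with 4 intervals above 0, and Hoxb5 in 4 of 4, with 2 above 0. Hoxb4 was higher in 2 of 8 and lower in 6, between −0.44 and 0.24, with 1 interval above 0. Whether the Hoxb2 ratio differed between classes was not tested.

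Hoxb2 was higher in 2 of the 3 erythroid clusters taken separately, and the interval of cluster 10 included 0: the log2 ratio was 0.95 (0.52 to 1.40) in cluster 6, 0.41 (−0.19 to 1.02) in cluster 10 and 1.26 (1.02 to 1.51) in cluster 11. Summed HSC/MPP markers in the erythroid class were at 15.6 CPM in the Mll3 deleted library and 21.3 in control, and summed megakaryocyte markers at 14.6 and 20.5 CPM. In lymphoid-primed cells summed HSC/MPP markers were at 263 CPM in the Mll3 deleted library and 250 in control, and 33.8% against 22.9% of cells were Sca-1 positive by antibody. In megakaryocyte-like cells summed HSC/MPP markers were at 246 and 261 CPM, and 21.9% against 12.8% of cells were Sca-1 positive. The Sca-1 threshold was set in control. The median Sca-1 count was also higher with Mll3 deleted in neutrophil-like (11 against 8) and granulocyte progenitor-like cells (9 against 6). Of neutrophil-like cells, 2.06% against 2.19% were positive. The part of these differences in the Hoxb2 and Hoxb5 values was not tested. Had every class kept its control level, the makeup of the Mll3 deleted library would have given 708 Hoxb2 counts. The library held 1274, a log2 ratio of 0.85 to that number, and for Hoxb5 263 against 162, or 0.70.

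In the Mll4 deleted library, HSC/MPP-like cells had less Hoxb2 and Hoxb3, while the intervals of the Hoxb4 and Hoxb5 ratios included 0. Hoxb2 was at 6.15 CPM from 12 counts against 15.9 CPM in control, a log2 ratio of −1.37 (−2.35 to −0.53), and Hoxb3 at 1.54 CPM from 3 counts against 7.42 CPM, or −2.27 (−4.58 to −0.67). Hoxb4 was at 21.5 against 21.0 CPM, or 0.04 (−0.47 to 0.51), and Hoxb5 at 6.15 against 4.94 CPM, or 0.32 (−0.72 to 1.23). The lower 2 of 4 tested members stand beside 5.04% of genes lower in that class, and none was higher, beside 5.21%. Within it, Hoxb2 was lower in cluster 8 (2 counts in 155 cells, log2 ratio −2.88, −5.95 to −0.98) and not distinguishable in cluster 2 (10 counts in 166 cells, −0.55, −1.66 to 0.38). In the CD150− CD48+ gate Hoxb2 was at 2.64 CPM (0.544 to 7.71) against 10.7 CPM (8.31 to 13.5), and in the CD150+ CD48− gate at 13.4 CPM (4.34 to 31.2) against 31.9 CPM (25.3 to 39.7), where the intervals overlapped.

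The HSC/MPP-like cells of this library held more neutrophil, basophil/mast and dendritic cell transcript. Summed neutrophil markers were at 3326 CPM against 1180 in control and 995 in the Mll3 deleted library, basophil/mast markers at 516 against 113 and 66.7 CPM, and dendritic cell markers at 328 against 125 and 117 CPM. Summed erythroid and B-cell progenitor markers were not higher than in control (457 against 481 and 29.2 against 31.8 CPM), and T/NK/innate lymphoid markers were at 128 against 258 CPM. By antibody, 50.2% of these cells were Sca-1 positive, against 75.4% in control and 76.5% in the Mll3 deleted library. Of the 10 neutrophil markers, 1 was at 0 in the Mll4 deleted cells of this class and none in control. The part of these differences in the Hoxb2 and Hoxb3 values was not tested.

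In the maturing classes of the Mll4 deleted library Hoxb4 was lower as well. It was at 3.28 against 5.72 CPM in erythroid (−0.80, −1.48 to −0.20), 6.78 against 14.6 in megakaryocyte-like (−1.10, −2.04 to −0.29), 5.69 against 13.2 in monocyte/macrophage progenitor-like (−1.22, −2.07 to −0.42) and 2.0 against 7.80 in neutrophil-like cells (−1.97, −2.59 to −1.39). Summed neutrophil markers in these classes were also higher than in control, at 3478 against 667 CPM in erythroid, 2957 against 1072 in megakaryocyte-like and 5535 against 1010 in monocyte/macrophage progenitor-like cells, and their part in the Hoxb4 values was not tested. Over the 8 classes Hoxb4 was lower in 7, with 5 intervals below 0. Hoxb2 was lower in 6 of the 6 classes where it was tested, with 4 intervals below 0, and in 1 of them, granulocyte progenitor-like cells, it had 0 counts against 20. Hoxb3 was lower in 6 of 6, with 2 intervals below 0.

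Megakaryocyte-like cells had 3 of 4 tested members past 2-fold lower, beside 4.15% of genes, with Hoxb2 at 3.65 against 11.8 CPM and Hoxb5 at 1.04 against 4.47 CPM from 2 counts. Neutrophil-like cells had 3 of 3, beside 4.55%. A single member each was past 2-fold lower in erythroid (Hoxb2, 1 of 4, beside 3.11%), lymphoid-primed (Hoxb2 from 3 counts, 1 of 3, beside 4.55%), granulocyte progenitor-like (Hoxb3 from 1 count, 1 of 3, beside 4.23%) and monocyte/macrophage progenitor-like cells (Hoxb4, 1 of 1, beside 3.08%). The intervals of the lymphoid-primed Hoxb2 ratio and the granulocyte progenitor-like Hoxb3 ratio included 0. The neutrophil-like classes of the 2 libraries came from different clusters, mostly cluster 9 in control and clusters 17 and 15 in the Mll4 deleted library. In cluster 15, which both held, Hoxb4 was at 1.77 CPM from 5 counts in 735 cells against 10.4 CPM from 30 counts in 282 cells, a log2 ratio of −2.56 (−4.28 to −1.18). With every class at its control level, the makeup of the Mll4 deleted library would have given 125 Hoxb2 counts and 321 Hoxb4 counts, against 32 and 167 observed, or −1.96 and −0.94 on the log2 scale.

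**Figure D4:**
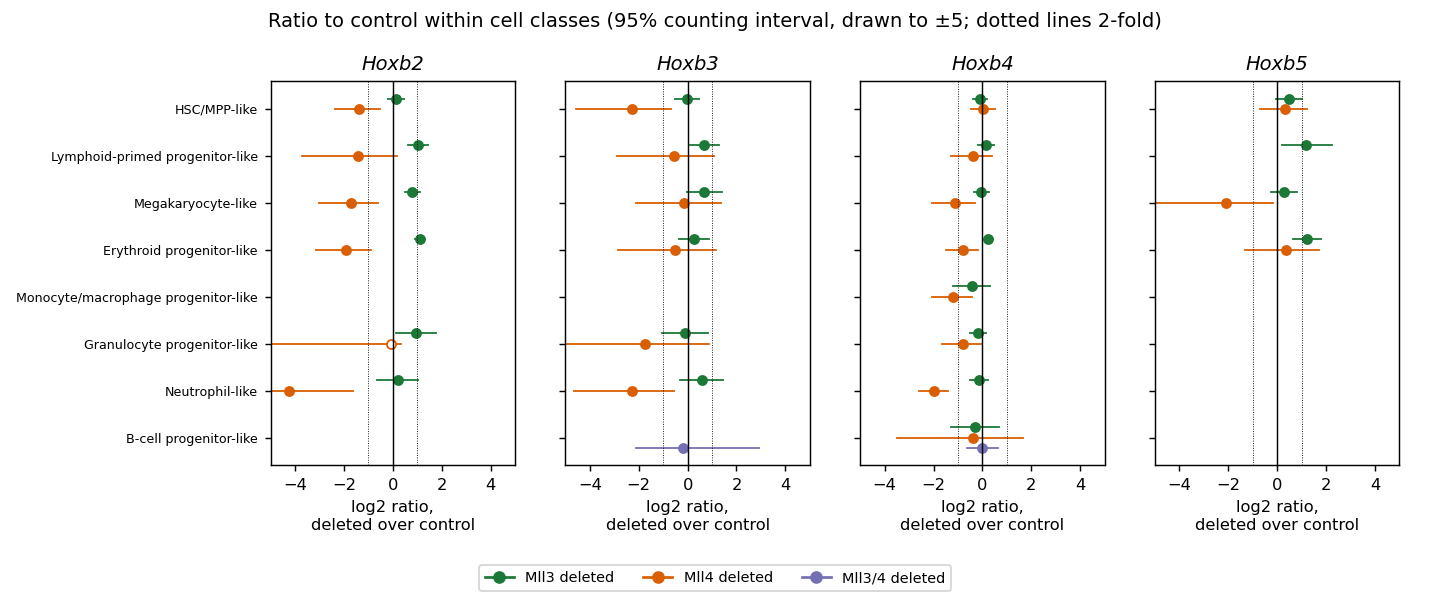
Log2 ratio of each deleted library to control (x axis) for 4 members in 8 cell classes (y axis); points are ratios of summed CPM, lines exact 95% counting intervals drawn to 5 in size, dotted lines 2-fold, and the open point a count of 0 set to 3. Mll3 deleted points for Hoxb2 lie between 0.13 and 1.11, and Mll4 deleted points for Hoxb2 lie below 0.

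The Mll3/4 deleted library was almost entirely B-cell progenitor-like, so its members were compared with control in that class. Hoxb4 was at 7.14 CPM from 542 counts against 7.23 CPM from 23 counts, a log2 ratio of −0.02 (−0.62 to 0.65). Hoxb3 was at 0.553 CPM from 42 counts against 0.629 from 2, or −0.18 (−2.13 to 2.91). Neither was past 2-fold, beside 12.7% of genes lower and 11.8% higher. Hoxb2 had 2 counts in 6831 cells and 1 in 471 control cells, so that no ratio is given. Hoxb5, Hoxb6 and Hoxb8 had 16, 17 and 13 counts against 1, 1 and 0, at 0.211, 0.224 and 0.171 CPM in the Mll3/4 deleted cells. The 6 members together were at 8.33 against 8.80 CPM, a log2 ratio of −0.08 (−0.63 to 0.52).

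The control cells of the class lay in clusters 0 and 16 and those of the Mll3/4 deleted library in clusters 22 to 25, so the 2 sets are of one named class but not of one cluster. By antibody, 80.3% of the Mll3/4 deleted cells were CD117 (Kit) positive against 9.55% in control, and 43.0% against 26.3% were Sca-1 positive. The median CD48 antibody count was 26 against 1031. Summed neutrophil markers were at 84.5 against 2521 CPM in control, and granulocyte progenitor markers at 36.3 against 782 CPM. HSC/MPP markers (29.9 against 14.5 CPM) and dendritic cell markers (181 against 129 CPM) were higher. The part of these differences in the HoxB and HoxA values was not tested. Hoxb4 was at 8.03 CPM (7.27 to 8.85) in cluster 22, 4.81 CPM (3.92 to 5.83) in cluster 23 9.50 CPM (6.26 to 13.8) in cluster 24 and 4.38 CPM (1.19 to 11.2) in cluster 25 of the Mll3/4 deleted library, and at 11.1 CPM (6.07 to 18.6) and 4.69 CPM (2.15 to 8.91) in clusters 0 and 16 of control. For Hoxb2, the makeup at control levels gives 31.6 counts, beside 3 observed (log2 ratio −3.40), a number that rests mostly on 1 control count in this class (0.314 CPM, 0.00796 to 1.75). For Hoxb4, the makeup at control levels gives 568 counts, beside 558 observed. For Hoxb3 it gives 51.9 counts, beside 46 observed (log2 ratio −0.18, −0.63 to 0.24). For Hoxb5 it gives 26.0 counts, beside 18 observed (−0.53, −1.28 to 0.13). The expected Hoxb3 and Hoxb5 numbers rest mostly on 2 and 1 control counts in this class, an uncertainty that these intervals leave out.

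HoxA genes in the same cells were not at their control level. Of 8 tested HoxA genes, 7 were past 2-fold higher in the B-cell progenitor-like cells of the Mll3/4 deleted library, beside 11.8% of all genes, with a median log2 ratio of 2.53. Hoxa9, often highly expressed in acute leukaemia, was at 72.7 CPM from 5518 counts against 3.14 CPM from 10 counts, or 4.53 (3.65 to 5.59), and Hoxa7 at 69.7 against 19.8 CPM, or 1.82 (1.46 to 2.20). Hoxa10 had 1030 counts against 0, or 14.4-fold higher with the 0 set to 3 counts. The Hox cofactors Meis1 (51.1 against 7.54 CPM) and Pbx3 (30.9 against 3.14 CPM) were past 2-fold higher. Among other HoxB genes Hoxb7 had 40 counts against 2 and Hoxb9 22 against 1, with log2 ratios of −0.25 (−2.20 to 2.84) and −0.12 (−2.75 to 5.25) that rest on those few control counts. Over all kept cells both were past 2-fold higher in the Mll3/4 deleted library, where the members were not: Hoxb7 had 40 counts against 5 (3.98, 2.64 to 5.68) and Hoxb9 22 against 7 (2.64, 1.36 to 4.11).

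**Figure D5:**
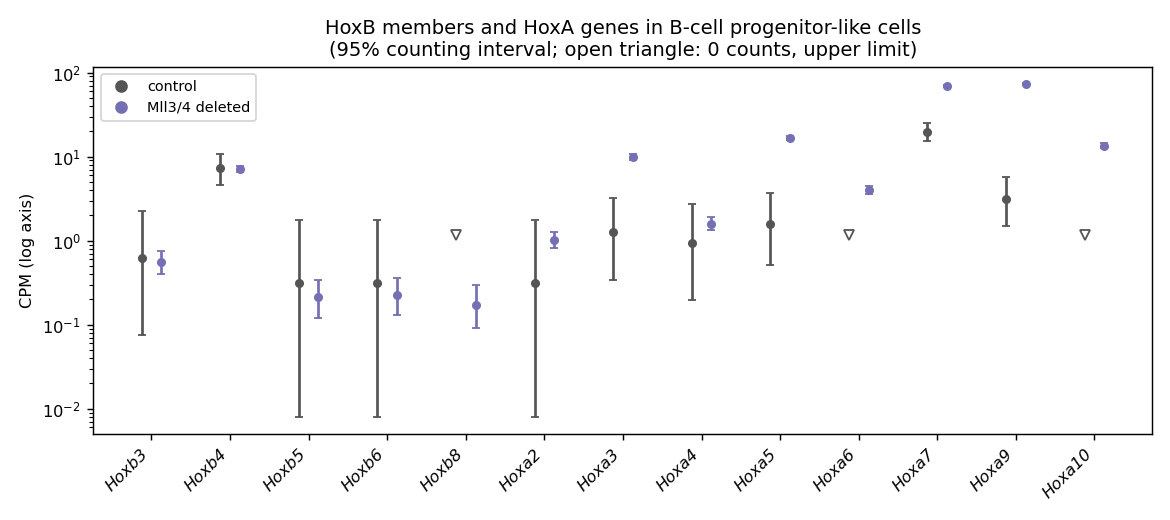
Levels (y axis, CPM, log axis) of 5 HoxB members and 8 HoxA genes (x axis) in B-cell progenitor-like cells of control and the Mll3/4 deleted library, with exact 95% Poisson intervals and an open triangle at the upper limit of a 0 count; Hoxb2, with 1 and 2 counts, is not drawn. Hoxb4 is at 7.23 and 7.14 CPM, while Hoxa9 is at 3.14 and 72.7 CPM.

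Other genes of the system were tested over all kept cells, and their counts are read beside the shares of all genes past 2-fold higher and lower: 1.57% and 3.4% with Mll3 deleted, 9.67% and 8.68% with Mll4 deleted, and 19.8% and 19.5% with both deleted. In the Mll3 deleted library none of 8 HoxA genes passed 2-fold (median 0.05), and of the HoxC genes Hoxc6 (74 counts against 9, log2 ratio 3.22, 2.21 to 4.40) and Hoxc4 (40 against 8, 2.50, 1.38 to 3.80) did. The 9 HoxD genes had 0 counts in each library. Of the Hox cofactors, mostly homeodomain partners of Hox proteins, 1 of 8 was past 2-fold lower with Mll3 deleted (Pknox2), 1 of 8 was higher (Pbx2) and 1 lower (Pbx4) with Mll4 deleted, and 3 of 9 were higher (Pbx3, Meis3 and Tgif1) and 1 lower (Pknox2) with both deleted. With Mll4 deleted, 2 of 8 HoxA genes, Hoxa4 and Hoxa6, were past 2-fold lower (median −0.87). The genes that flank the cluster did not follow the members: of 6 tested neighbours none passed 2-fold in the Mll3 deleted library and 1, Atp5g1, was lower in each of the other libraries (−1.21 and −1.05). Of 17 tested regulators of Hox genes, among them Kmt2a (Mll1), the methyltransferase that maintains Hox expression, and the Polycomb repressors, none passed 2-fold in the Mll3 or Mll4 deleted library. In the Mll3/4 deleted library 3 were lower, namely Rarg (5 counts against 288, −4.86), Rara (−1.86) and Ring1 (−1.07), and Kmt2a was at 177 against 91.6 CPM (0.95). That library was 98.8% B-cell progenitor-like cells and control 6.59%, and the part of makeup in these regulator and cofactor values was not tested. Within that class 1 of 16 tested regulators was past 2-fold lower and 1 higher, beside 12.7% and 11.8% of genes. Of 8 tested cofactors there, 3 were higher and none lower.

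The genes whose profile was most like each member were sought over 29 class and library combinations of at least 100 cells from the 4 libraries, which share library, depth and class. By Pearson correlation of log2(CPM + 1), given as a description, these were Hoxb3os (0.90), Ltc4s (0.86) and F2rl3 (0.86) for Hoxb2. For Hoxb3 they were Dipk1b (0.89), Gm13203 (0.87) and Nwd1 (0.87), and for Hoxb4 Pts (0.89), Dipk1b (0.88) and Otos (0.86). Hoxb5 was most like Xkr6 (0.92), Ttll7 (0.92) and Gm20467 (0.90). Hoxb6 and Hoxb8, with few counts, were most like Nrk (0.85) and Shtn1 (0.90). Among the members, Hoxb2 and Hoxb3 correlated at 0.85 and Hoxb2 and Hoxb4 at 0.72. The correlation of Hoxb8 and Hoxb4 was 0.02 and rests on few Hoxb8 counts. The highest Hoxb8 level, 5.99 CPM in Mll4 deleted dendritic cell-like cells, came from 2 counts.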

How the data were processed

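The deposited matrices hold UMI counts per gene and antibody for each cell barcode, made by the authors with Cell Ranger 6.1.2 on mm10, per the submitters' processing notes, with no normalization. Strand setting and cell calling are not given in the sources used here. Barcodes with at least 500 genes, at least 1000 UMIs and at most 10% mitochondrial UMIs were kept, and the top Scrublet doublet scores (scanpy 1.11.5) were removed at 0.8% per 1000 barcodes. Cells were clustered with 2000 variable genes, without Hox, Xist, Y-linked and mitochondrial genes, 30 components, 15 neighbours and Leiden resolution 1, and named from 14 fixed marker classes, with leading genes ranked by fold over control cells outside the cluster. Counts were summed to CPM. Log2 ratios carry exact conditional binomial 95% intervals, and were checked on simulated data. A count of 0 was set to 3, and features with at least 20 counts in either library were tested. Antibody thresholds were crossings of a 2-component mixture in control. Named genes were the 6 members, genes of 8 fixed lists, and the 3 most alike genes. Comparison in 6 classes beyond HSC/MPP-like and B-cell progenitor-like cells was added after seeing the data. The members and lists were chosen with earlier results of these data known.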

Additional observations from a re-analysis of the deposited data

How the results depend on the processing

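No paired analysis was possible because each group has 1 library. Of the 100 alternative values for the summary results, 84 stayed within the spread set by counting error, including those of trimmed mean scaling, a 5% mitochondrial limit, other doublet handling, Leiden resolution 2, another seed and clustering with Hox genes. At Leiden resolution 2, however, a cluster scored nearest to HSC/MPP and left unnamed held 266 Mll4 deleted and 0 control cells. The larger HSC/MPP-like cluster there held 31 Mll4 deleted and 613 control cells. Another unnamed cluster held 524 Mll4 deleted and 0 control cells, and the monocyte/macrophage progenitor-like cluster held 35 and 194. The median log2 ratio of members over all kept cells moved, with no minimum count, to −0.99 in the Mll3/4 deleted library; with a minimum of 100 counts, to −1.25 in the Mll4 deleted library; and with a pseudocount of 1 CPM, to 0.20 (Mll3) and −0.78 (Mll3/4). With cells thinned to 2000 UMIs it was 0.21, −2.16 and −2.30. In HSC/MPP-like cells the Mll4 deleted median reversed to 0.18 with no minimum count, where Hoxb6 and Hoxb8 enter. For single members 257 values stayed and 25 moved. Both remaining alternatives were chosen after seeing the data: against the counts expected at control class levels the Mll3/4 deleted median was −0.50, and with lymphoid-primed cells added to HSC/MPP-like cells the Mll3 deleted median was 0.52. The share of HSC/MPP-like cells with any member was 5.93%, 6.17% and 4.98% at 1000 UMIs and 19.97%, 21.1% and 15.5% at 4000 UMIs. Thinning and the minimum of 100 counts gave no value for B-cell progenitor-like cells of the Mll3 and Mll4 deleted libraries. Hoxb6 and Hoxb8 are limited by depth in every library.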
